A study of Mus musculus with 8 samples.

Results

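The genes described here are 10 kinases that drive or guard mitosis, Plk1, Aurka, Aurkb, Bub1, Bub1b, Ttk, Nek2, Cdk1, Melk and Pbk, chosen by gene symbol out of 21368 named genes on the array. All 10 have a probe, and 9 could be tested, because the probe of Aurkb was not well above background on any array. The 8 samples are dermal fibroblasts from the skin of newborn C57BL/6 mice, taken into culture after enzyme digestion and grown in serum-containing medium. The miR-127-3p group (4 samples, numbered 2, 4, 5 and 7) received mimic oligonucleotides, synthetic RNA that acts as the mature microRNA miR-127-3p in the cell. The control group (4 samples, numbered 1, 3, 6 and 8) received control oligonucleotides. The title names senescence of myofibroblasts as the subject; the comparison asks what the microRNA does to the RNA of these cells. No mutation or transgene is named for either group, and no source used here gives the time between transfection and harvest. The treatment label of controls 3 and 6 names both kinds of oligonucleotide, while their titles and source names say control, so the main counts were also taken without them. Nothing says that the samples came from separate mice or cultures, so p-values measure the spread between these samples, which may be technical.

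Mitotic kinases attach phosphate groups to proteins of chromosomes, spindle and centrosomes in an ordered sequence. Cdk1 bound to a cyclin opens mitosis, polo-like and Aurora kinases mature the centrosomes and correct chromosome attachment, and Bub1, Bub1b and Ttk hold the checkpoint that delays the separation of chromatids. Most of these genes are transcribed late in the cell cycle and are nearly silent in resting cells. Their promoters are known for a CHR (cell cycle genes homology region) element, read by the MuvB complexes DREAM and Myb-MuvB, together with CCAAT boxes bound by NF-Y.

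The mature microRNA that the mimic stands for is shown because it is the agent tested. It is given as RefSeq lists it on GRCm38.p6 (chr12:109592888-109592909, plus strand), with its seed, bases 2 to 8, in capitals.
mmu-miR-127-3p: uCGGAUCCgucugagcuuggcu

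RefSeq windows of 250 bases before to 50 bases after the annotated start were at hand for 8 of the 10 genes, all but Aurkb and Pbk. The CHR words searched were TTTGAA and, as a variant, TTCGAA, and the NF-Y box was searched as CCAAT. Windows are shown for 4 genes: Plk1, Aurka and Cdk1 carry a CHR word and CCAAT, and Melk carries none of the words searched. Other spellings of the CHR were not searched, and whether a fall depends on these words was not tested. Capitals mark these words on either strand (GRCm38.p6, 5′ to 3′ along the gene).
Plk1 (chr7:122159185-122159484, plus strand): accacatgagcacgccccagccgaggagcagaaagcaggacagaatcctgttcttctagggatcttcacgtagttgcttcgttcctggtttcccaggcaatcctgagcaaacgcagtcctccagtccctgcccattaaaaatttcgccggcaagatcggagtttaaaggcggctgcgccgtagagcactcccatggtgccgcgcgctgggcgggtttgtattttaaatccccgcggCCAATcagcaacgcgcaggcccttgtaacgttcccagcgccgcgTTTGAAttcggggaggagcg
Aurka (chr2:172370521-172370820, minus strand): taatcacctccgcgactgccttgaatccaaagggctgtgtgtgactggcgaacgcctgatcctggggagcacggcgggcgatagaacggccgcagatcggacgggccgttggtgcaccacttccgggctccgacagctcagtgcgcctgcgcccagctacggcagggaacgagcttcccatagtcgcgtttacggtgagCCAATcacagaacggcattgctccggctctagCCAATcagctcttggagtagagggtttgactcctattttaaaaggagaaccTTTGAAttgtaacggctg
Cdk1 (chr10:69352863-69353162, minus strand): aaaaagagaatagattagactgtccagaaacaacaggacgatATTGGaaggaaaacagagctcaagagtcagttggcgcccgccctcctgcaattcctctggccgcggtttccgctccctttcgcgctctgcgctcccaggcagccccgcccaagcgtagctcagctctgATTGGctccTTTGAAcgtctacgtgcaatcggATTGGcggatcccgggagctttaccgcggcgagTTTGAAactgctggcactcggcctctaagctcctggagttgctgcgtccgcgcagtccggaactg
Melk (chr4:44300667-44300966, plus strand): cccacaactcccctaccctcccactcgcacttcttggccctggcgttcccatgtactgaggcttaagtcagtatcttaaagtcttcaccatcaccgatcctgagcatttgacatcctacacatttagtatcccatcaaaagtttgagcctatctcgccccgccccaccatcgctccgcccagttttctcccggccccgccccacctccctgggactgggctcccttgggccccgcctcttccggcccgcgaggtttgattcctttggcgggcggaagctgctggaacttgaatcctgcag

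A CHR word on either strand stood in 6 of the 8 windows, against 19.2% of all 32851 windows of that length. CCAAT on either strand stood in 7 of 8, against 37.4% of all windows, and a CHR word together with CCAAT in 6 of 8, against 7.52%. The words did not overlap one another in these windows. Positions are of the word's leftmost base, counted from the annotated start, negative upstream. In Plk1, Aurka and Bub1 the CHR word stood at 31, 33 and 15, downstream of every CCAAT in the window. Cdk1 had TTTGAA at -71 and -15. Bub1b had TTTGAA at 41 and TTCGAA at -188, and Ttk had TTTGAA on the opposite strand at 8. Nek2 had CCAAT at -26 and 8 and no CHR word. A match is only a match of letters, and no binding was measured.

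**Figure D1:**
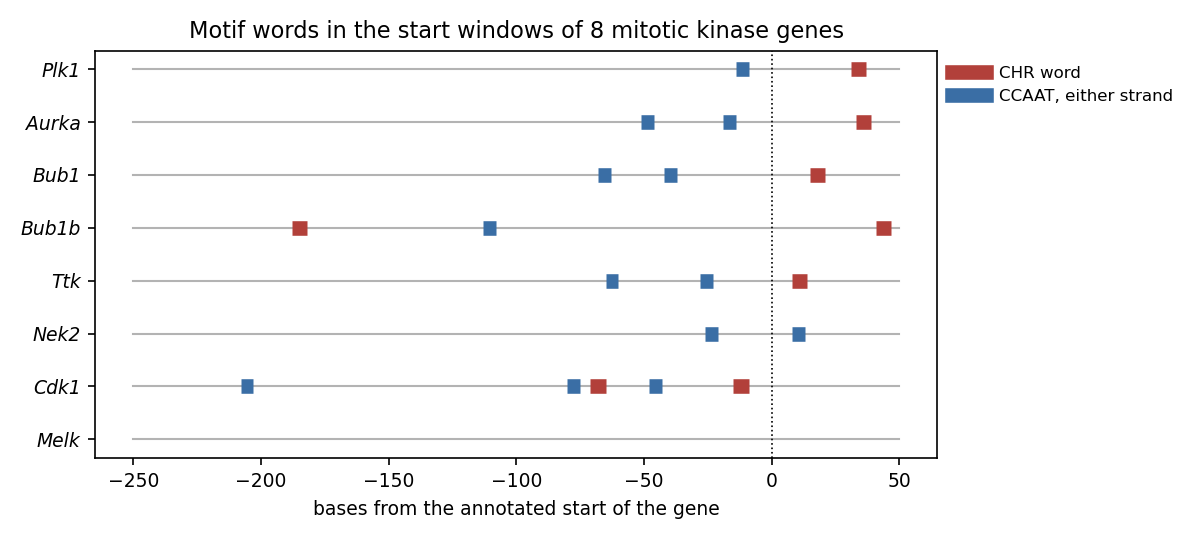
Positions of the CHR words (TTTGAA or TTCGAA, red) and of CCAAT on either strand (blue) in the start windows of 8 mitotic kinase genes; the x axis gives bases from the annotated start (dotted line). CHR words stand in 6 windows and CCAAT in 7, and the Melk window holds neither.

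The arrays shared 1 slide and 1 scan, with samples 1 to 4 in slide row 1 and samples 5 to 8 in row 2. Between 20756 and 23472 probes per miR-127-3p array and between 20886 and 22638 per control array were well above background. All 9 listed fibroblast markers, among them Col1a1, Pdgfra and Thy1, were well above background on every array. Levels below are log2 processed signals minus the 75th percentile of the array, so that 0 is the level of a probe at that percentile. A level of one gene is not comparable with that of another, because each probe binds with its own strength.

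With the miR-127-3p mimic, 9 of 9 tested mitotic kinases fell and 0 rose (limma, adjusted p under 0.05 over 17093 features). Ttk could be tested only because it was well above background on the 4 control arrays. Its fall, here and in the counts below, was thus favoured in advance and is no support. Of all features, 18.3% were called lower and 34.2% were called in either direction. For the 8 genes above background on every array, log2 fold changes lay between -2.31 (Bub1) and -1.82 (Cdk1). The median over the 9 was -2.09, the same with Ttk, which was dim with the mimic, at its bound, where the median over all features was 0.02. The 4 miR-127-3p arrays lay below all 4 control arrays for each of the 9 genes, as they did for 19% of all features. In bulk RNA, fewer dividing cells and less of these RNAs per dividing cell cannot be told apart.

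**Figure D2:**
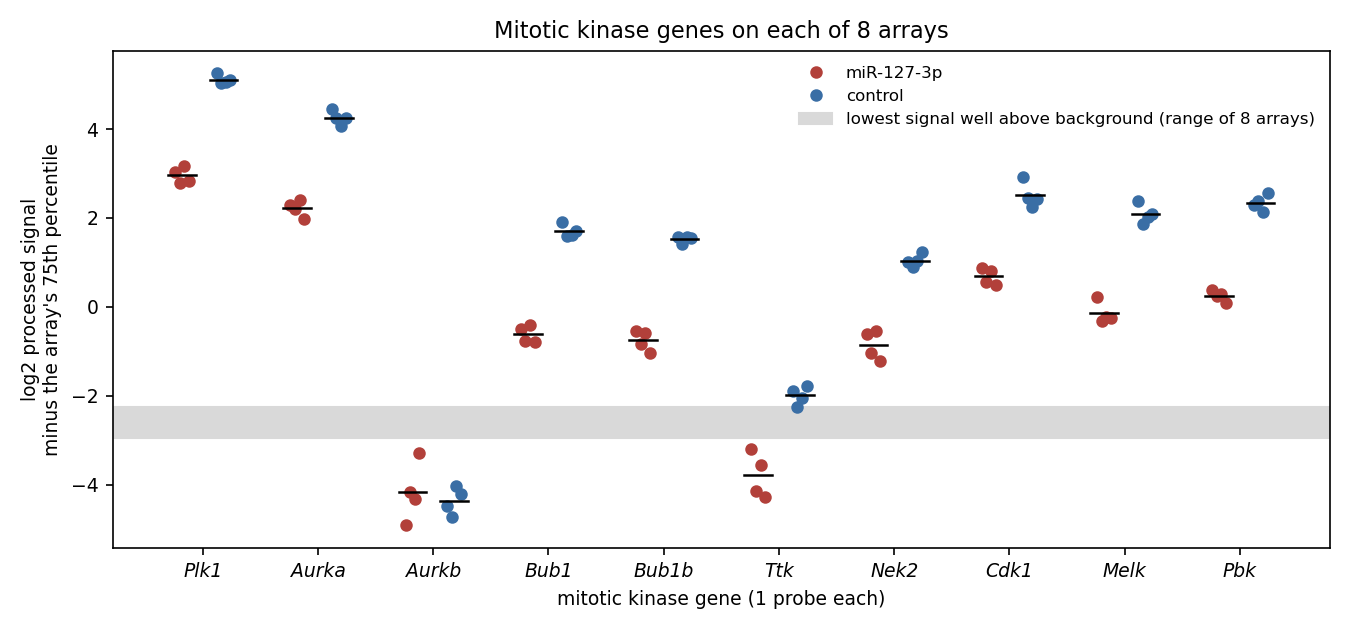
Log2 processed signal minus the 75th percentile of the array (y axis) for the probe of each mitotic kinase gene (the brightest of 3 for Cdk1) on 4 miR-127-3p arrays (red, left) and 4 control arrays (blue, right), with group means as lines. The grey band is the range over 8 arrays of the lowest signal well above background; Aurkb lies below it in both groups, and Ttk below it on the miR-127-3p arrays.

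Cdk1 is the kinase that, bound to cyclin B, starts mitosis. Its brightest probe had levels of 0.88, 0.57, 0.81 and 0.50 on miR-127-3p arrays 2, 4, 5 and 7, against 2.92, 2.44, 2.24 and 2.43 on control arrays 1, 3, 6 and 8. The nearest arrays of the groups were 1.36 apart, and control 1 stood highest. The log2 fold change was -1.82 (SE 0.16, limma adjusted p = 8.51e-05), which leaves 28.4% of the control level. Of its other 2 probes, one was not well above background on any array (miR-127-3p arrays -4.83 to -4.14, control arrays -4.71 to -3.53). The other was so only on control 1 (miR-127-3p arrays -3.70 to -2.63, control arrays -4.72 to -2.15), so neither gives a fold change.

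Plk1, the polo-like kinase that matures centrosomes and acts from mitotic entry to cytokinesis, had levels of 3.04, 2.78, 3.18 and 2.83 on the miR-127-3p arrays and 5.25, 5.03, 5.05 and 5.11 on the control arrays. The 4 control arrays lay close together (SD 0.10), and the groups were 1.85 apart at their nearest arrays. Its log2 fold change was -2.15 (SE 0.11, limma adjusted p = 1.28e-05), a 4.45-fold fall.

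Aurka, the Aurora kinase of centrosomes and spindle poles, stood at 2.28, 2.20, 2.41 and 1.97 with the mimic, against 4.45, 4.25, 4.06 and 4.24 in controls. It fell 4.10-fold (log2 fold change -2.04, SE 0.12, limma adjusted p = 1.69e-05), with a gap of 1.66 between the groups. Aurkb, the Aurora kinase of the chromosomal passenger complex, had levels of -4.91, -4.17, -4.31 and -3.29 with the mimic and -4.48, -4.72, -4.03 and -4.19 in controls. The Aurkb values of both groups overlap below the lowest signals well above background (-2.95 to -2.26 over the 8 arrays), so the probe was not read and gives neither a level nor a change.

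Nek2, a NIMA-related kinase that loosens the link between centrosomes, had levels of -0.61, -1.04, -0.55 and -1.22 on the miR-127-3p arrays and 1.02, 0.90, 1.03 and 1.23 on the control arrays. Its miR-127-3p arrays spread more (SD 0.33) than its control arrays (SD 0.14). The groups did not overlap, and the log2 fold change was -1.90 (SE 0.16, limma adjusted p = 7.86e-05).

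The 3 checkpoint kinases also fell, Ttk with a size that could only be bounded. Bub1, which phosphorylates histone H2A at centromeres and recruits other checkpoint proteins, had levels of -0.50, -0.77, -0.41 and -0.79 with the mimic and 1.90, 1.59, 1.61 and 1.70 in controls. It fell 4.98-fold (log2 fold change -2.31, SE 0.12, limma adjusted p = 1.28e-05). Bub1b, which encodes BubR1, a part of the mitotic checkpoint complex that inhibits Cdc20, had levels of -0.54, -0.83, -0.58 and -1.04 with the mimic, against 1.57, 1.41, 1.57 and 1.54 in controls. The control values of Bub1b lay close together (SD 0.08), and the log2 fold change was -2.27 (SE 0.12, limma adjusted p = 1.29e-05).

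Ttk encodes Mps1, the kinase at the head of the spindle checkpoint. Its measured levels were -3.20, -4.13, -3.55 and -4.27 with the mimic and -1.88, -2.24, -2.06 and -1.77 in controls. All 4 control arrays were well above background, though close to its edge, and no miR-127-3p array was. On the scale of processed signals Ttk was therefore at least 1.42-fold lower with the mimic, a bound that was not itself tested. The bound holds on that scale alone, since with normexp background correction the log2 fold change was -0.45, a smaller fall. The bound compares the control mean with a floor averaged over the miR-127-3p arrays, namely each array's lowest signal well above background or the Ttk signal where that was higher. The fitted log2 fold change of Ttk, -1.80 (limma adjusted p = 0.000756), rests on signals below background and is no measure of the size of the fall.

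Melk and Pbk are kinases of dividing and progenitor cells whose substrates are less settled; Melk belongs to the AMPK-related family, and Pbk is active when phosphorylated in mitosis. Melk had levels of 0.23, -0.31, -0.23 and -0.24 with the mimic and 2.39, 1.86, 2.01 and 2.08 in controls. Array miR-127-3p 2 stood above the other 3, which lay close together, and still below every control. The log2 fold change of Melk was -2.22 (SE 0.15, limma adjusted p = 3.18e-05). Pbk had levels of 0.38, 0.25, 0.29 and 0.08 with the mimic and 2.29, 2.39, 2.13 and 2.56 in controls. Its miR-127-3p arrays were the tightest of the 9 genes (SD 0.13), and its log2 fold change was -2.09 (SE 0.11, limma adjusted p = 1.29e-05).

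Background correction changed the size of these falls; with normexp all 9 still fell, where 17.4% of all features were called lower. With that correction log2 fold changes were -2.10 for Plk1 and -1.91 for Aurka, and between -1.79 and -1.60 for Pbk, Bub1b, Bub1, Melk and Cdk1. They were -1.28 for Nek2 and -0.45 for Ttk, so the size of the fall of these 2 genes depends most on the correction. When a probe had to be well above background on all 8 arrays, Ttk was not tested and the other 8 fell, where 19.7% of all features were called lower. Within each slide row (2 arrays per group), log2 fold changes of the 8 genes other than Ttk lay between -2.38 and -1.79 in row 1 and between -2.36 and -1.68 in row 2. Within row 1, 8 of 9 fell, where 5.8% of all features were called lower, and Ttk had adjusted p = 0.0544 (limma). Within row 2, 9 of 9 fell, where 5.42% of all features were called lower. Without controls 3 and 6, all 9 fell, where 13.7% of all features were called lower.

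**Figure D3:**
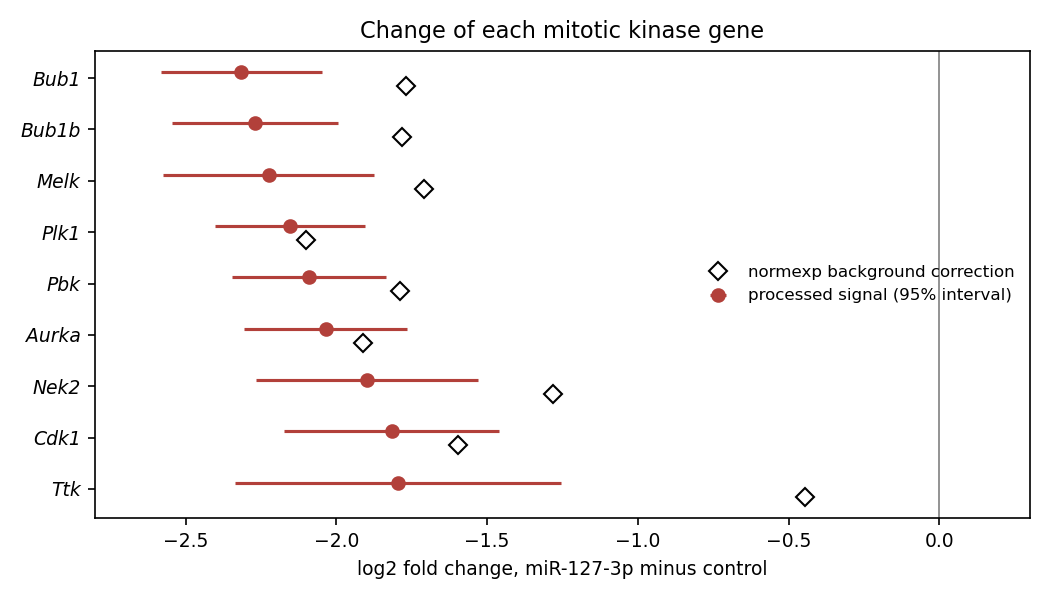
Log2 fold change of each tested mitotic kinase gene, miR-127-3p minus control (x axis, n = 4 per group), from processed signals with 95% intervals (red) and with normexp correction (open diamonds). All lie below 0; the 2 corrections differ little for Plk1 and most for Ttk, whose miR-127-3p signals were below background.

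Most of the 9 genes were high or low on the same miR-127-3p arrays, with Melk, high on array 2 alone, as an exception. Their mean deviation from the control mean was -1.84, -2.21, -1.91 and -2.31 on miR-127-3p arrays 2, 4, 5 and 7, and 0.15, -0.10, -0.10 and 0.06 on controls 1, 3, 6 and 8. Array miR-127-3p 7 held the lowest value of its group for 7 of the 9 genes and miR-127-3p 4 for the other two. Arrays miR-127-3p 2 and 5 held the highest value for 5 and 4 genes. Among controls, control 1 held the highest value for 5 genes and control 3 the lowest for 6. The lower pair of miR-127-3p arrays, 4 and 7, lay in different slide rows and in slide columns 4 and 3, and the higher pair, 2 and 5, in columns 2 and 1. The 75th percentiles of log2 signal were 7.48 and 7.42 on arrays 4 and 7, and 7.82 and 7.68 on arrays 2 and 5. The part of slide column and array brightness in this pattern was not tested. The means include Ttk at its dim measured signals. All genes of an array share its scaling constant.

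**Figure D4:**
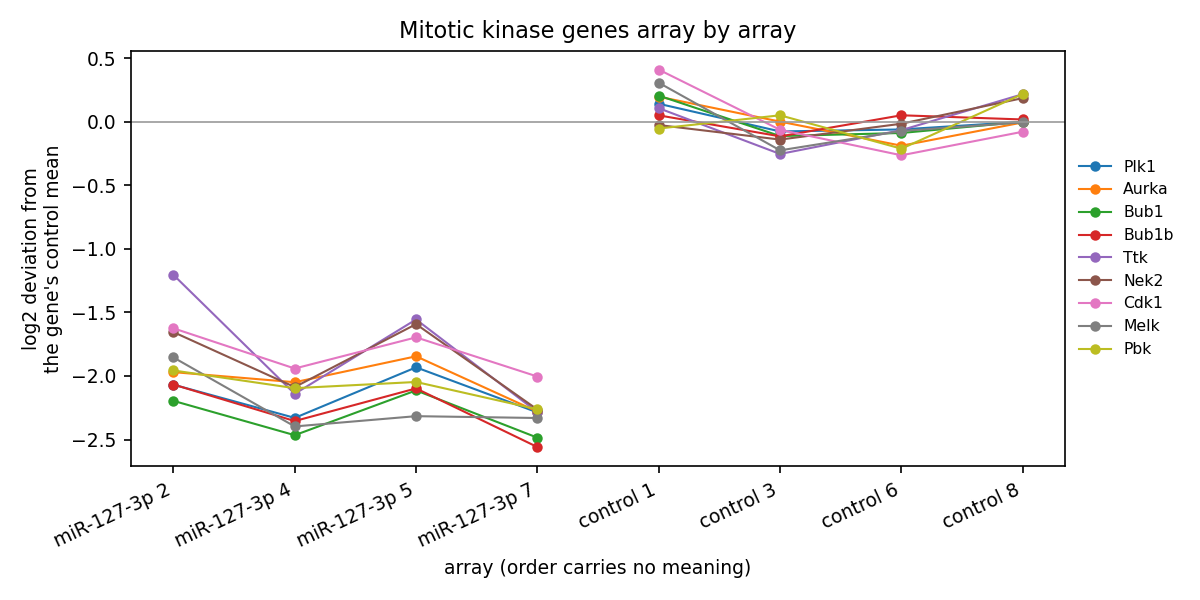
Log2 deviation of each tested mitotic kinase gene from its own control mean (y axis) on the 4 miR-127-3p arrays (left) and 4 control arrays (right). Lines join the arrays of a group only to show that genes move together; means over the 9 genes lie between -2.31 and -1.84 on miR-127-3p arrays, against -0.10 and 0.15 on control arrays.

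Whether the genes differed in the size of their fall was asked by setting, on each array, the deviation of a gene against the median deviation of the other 8. The difference, negative for a larger fall, was -0.28 for Bub1 and -0.22 for Bub1b on the log2 scale, with no overlap between groups (exact permutation p = 0.0286 each, two-sided, the smallest that 70 assignments allow; adjusted p = 0.129 over 9 genes). For Cdk1 it was 0.29 (exact permutation p = 0.0571, adjusted p = 0.171). None of the 9 passed after adjustment. With 70 assignments, a gene at the smallest p could pass only if most of the 9 genes reached that p as well. The test therefore cannot decide whether the falls differ in size. No difference is given for Ttk, whose signals with the mimic were below background. Those dim Ttk signals still entered the median set against each other gene, and Ttk counted in the adjustment. The remaining differences were 0.22 for Nek2, 0.05 for Aurka, -0.01 for Pbk, -0.10 for Plk1 and -0.17 for Melk. With normexp the difference was -0.21 for Aurka and 0.04 for Melk, opposite in sign to the above, and the sign of Pbk also turned in other settings. Over all settings the difference ran from -0.30 to -0.06 for Bub1, from -0.24 to -0.07 for Bub1b and from -0.40 to -0.05 for Plk1. With normexp the log2 fold changes of Bub1 (-1.77) and Bub1b (-1.78) were smaller falls than that of Plk1 (-2.10).

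Other kinases of mitosis, outside the 10, were measured by a list of 10, of which 8 fell and 1 rose (background 18.3% lower and 15.9% higher), with a median log2 fold change of -1.43. Pkmyt1 (-1.98, SE 0.14) and Wee1 (-1.51, SE 0.14), which hold Cdk1 inactive before mitosis, fell along with Cdk1 itself. Haspin, which marks histone H3 for the passenger complex, had a log2 fold change of -1.35 (SE 0.13), and Plk4, the kinase of centriole duplication, one of -2.48 (SE 0.26). Plk4 was well above background on 1 of 4 miR-127-3p arrays, so this size rests on dim signals, and its log2 fold change with normexp was -0.78. Among the NIMA relatives that act with Nek2 in mitosis, Nek6 fell (-0.72, SE 0.12) and Nek7 rose (0.45, SE 0.11, limma adjusted p = 0.0115). Nek9 had a log2 fold change of 0.10 (limma adjusted p = 0.508). With 15.9% of all features called higher, the count of rises is no result about this list. The call of Nek7 did not hold with no filter on dim probes, with slide column blocked or within either slide row (adjusted p up to 0.174).

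All 5 of the cyclins and Cks subunits that Cdk1 binds fell (background 18.3% lower), with a median of -2.09. The mitotic cyclins Ccna2, Ccnb1 and Ccnb2 had log2 fold changes of -2.37 (SE 0.12), -2.29 (SE 0.12) and -2.09 (SE 0.12). The small adaptor subunits Cks1b and Cks2 had -1.15 (SE 0.08) and -1.07 (SE 0.15).

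Of 8 activators of Aurora kinases and members of the passenger complex, 7 fell and 1 rose (median -1.61). Of all features, 18.3% were called lower and 15.9% higher, so the count of rises is no result about this list. The 3 partners of Aurkb in the passenger complex all fell: the survivin gene Birc5 (-2.20, SE 0.11), the borealin gene Cdca8 (-1.87, SE 0.09) and the scaffold Incenp (-1.69, SE 0.10). Tacc3, a spindle protein recruited by Aurora A, fell by 1.97 on the log2 scale (SE 0.12). Ajuba, a scaffold protein that binds Aurora A and also acts at cell junctions, rose (0.66, SE 0.15, limma adjusted p = 0.00926); its call was lost within either slide row alone (adjusted p up to 0.134).

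Of 11 spindle checkpoint partners, 8 fell and 0 rose (background 18.3% lower and 15.9% higher). The 8 include Spdl1, which could be tested only through its control arrays, so its fall was favoured in advance. The median was -1.73 (-1.70 with Spdl1 at its bound), and -1.73 is the fitted value of Knl1, which was partly below background. The inhibitor Mad2l1 (-2.04, SE 0.09), its target Cdc20, the activator of the anaphase-promoting complex (-1.93, SE 0.13), Kntc1 (-1.93, SE 0.13), which recruits Mad1 and Mad2 to kinetochores, and the ATPase Trip13 (-1.70, SE 0.11), which takes the checkpoint complex apart, fell. Bub3, the partner of both Bub1 and Bub1b, fell by 0.41 on the log2 scale (SE 0.07, limma adjusted p = 0.00336). Spdl1 was not well above background on any miR-127-3p array, so its fitted change (limma adjusted p = 0.00784) is no measure of size. On the scale of processed signals Spdl1 was at least 1.95-fold lower, a bound that was not itself tested. With normexp its log2 fold change was -0.32, a smaller fall than this bound, and the call was lost (adjusted p = 0.0968), as it was within slide row 1 (adjusted p = 0.119). The log2 fold changes of Mad2l1bp (-0.21, adjusted p = 0.0642) and Zw10 (-0.24, adjusted p = 0.0686) did not pass, though Mad2l1bp did without control 3 (-0.26, adjusted p = 0.0384) and with a trended, robust variance model (adjusted p = 0.0434).

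Knl1, the kinetochore scaffold that Ttk phosphorylates and on which Bub1 and Bub1b assemble, was split. Its levels were -2.39, 0.17, -3.37 and -3.43 on miR-127-3p arrays 2, 4, 5 and 7, against -0.40, -0.63, -0.52 and -0.54 in controls. Array miR-127-3p 4 lay above every control and the other 3 below every control. Arrays 5 and 7 were not well above background, so the fitted values that follow are no measured sizes. The gene did not pass (-1.73, SE 0.71, limma adjusted p = 0.0917), and without miR-127-3p 4 it did (-2.54, adjusted p = 0.000499), as it did with normexp (-0.71, adjusted p = 0.00317) and within row 2 (-2.87, adjusted p = 0.0174). On that same array the 9 mitotic kinases had the second lowest mean of the group, and the cause was not tested.

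Of 9 genes for anchors and substrates of Plk1, 8 fell and 0 rose (median -1.93, background 18.3% lower and 15.9% higher). They include the cytokinesis genes Racgap1 (-1.88, SE 0.10) and Prc1 (-1.76, SE 0.11), the kinesin Kif20a (-2.09, SE 0.13), and Fbxo5 (-1.95, SE 0.15), which encodes the inhibitor Emi1 that Plk1 marks for destruction. Gtse1, which is expressed in G2 and restrains p53, had levels of -0.04, -0.29, -0.04 and -0.13 with the mimic and 0.36, -0.01, -0.17 and -0.09 in controls. The groups overlapped, and its log2 fold change was -0.15 (95% interval -0.44 to 0.14, limma adjusted p = 0.404).

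Genes for the phosphatases that undo mitotic phosphorylation were mostly not called. Of 21 tested subunits and regulators of PP1, PP2A, PP6 and Cdc14, 6 fell and 0 rose, with a median of -0.13, against a background of 18.3% lower. The largest fall was that of Cdca2, a targeting subunit of PP1 on mitotic chromosomes, which is itself a gene of dividing cells (-1.78, SE 0.15). Other log2 fold changes that passed include those of Ppp1r7 (-0.49, SE 0.10), Ppp2r5d (-0.43, SE 0.08) and Ppp2r2d (-0.33, SE 0.07). The call of Ppp2r2d was lost in 5 settings, among them the removal of controls 3 and 6.

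Kinases of the same families that act outside mitosis were set beside the 10. Of 2 tested polo relatives, Plk3, a stress-response kinase, rose (0.74, SE 0.13, limma adjusted p = 0.00339) and Plk2 had a log2 fold change of 0.40 (adjusted p = 0.0532), which passed in 6 other settings. Plk3 lost its call within slide row 1 (adjusted p = 0.0947). Of 3 tested NIMA relatives 0 passed (Nek3 0.24, Nek8 0.14 and Nek4 -0.01 by limma, adjusted p from 0.129 to 0.960), and Nek4 changed sign in 4 settings. The counts of polo and NIMA relatives are too small to set against the 18.3% of all features called lower and 15.9% higher. Of 16 cyclin-dependent kinase relatives, 2 fell and 1 rose, with a median of -0.07, beside 18.3% of all features called lower and 15.9% higher, so the counts are no result about this family. Cdk2, the S-phase kinase most like Cdk1, had a log2 fold change of -0.59 (SE 0.14, limma adjusted p = 0.0129), and its call was lost without controls 3 and 6 and within slide row 1 (adjusted p up to 0.314). The Mediator kinase gene Cdk19 fell (-0.78, SE 0.17), the neuronal kinase gene Cdk5 rose (0.48, SE 0.09), and the G1 kinase gene Cdk4 had -0.18 (adjusted p = 0.143). Of 12 AMPK-related kinases, the relatives of Melk, 1 fell and 2 rose, with a median of 0.19, which is likewise near or below those shares: Prkaa1 fell (-0.42), and Mark4 (0.57) and Brsk1 (0.63) rose. Prkaa1 was lost in 3 settings. Within a single slide row, with 2 arrays per group, the calls of Nek6, Bub3, Ppp2r5d, Ppp1r7, Cdk5 and Mark4 were lost in both rows and those of Cks2, Cdk19 and Brsk1 in row 1. Whether these families differ from the mitotic kinases as lists was not tested.

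**Figure D5:**
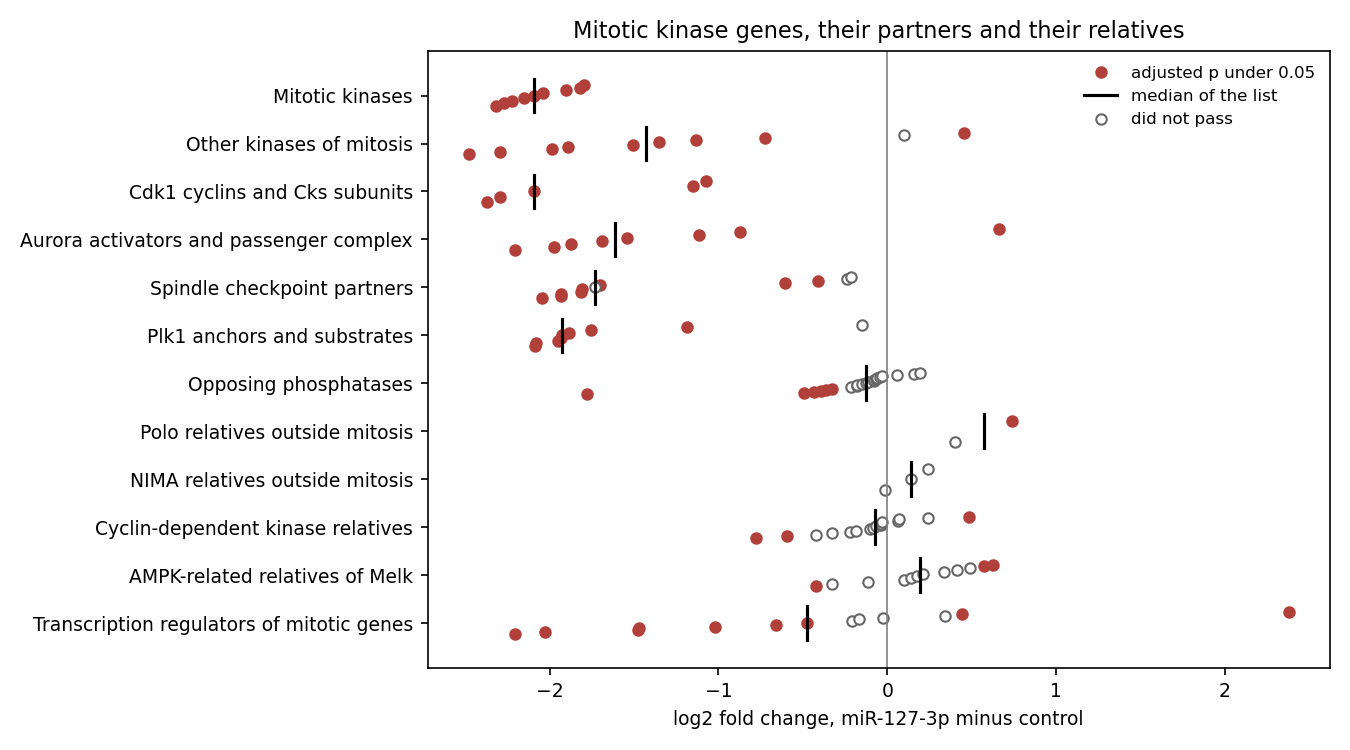
Log2 fold change, miR-127-3p minus control (x axis), of each tested gene in 12 lists; filled points passed limma at adjusted p under 0.05, open points did not, and black bars are list medians. Medians are -2.09 for the mitotic kinases, -2.09 for the cyclins and Cks subunits of Cdk1, and between -0.13 and 0.57 for the phosphatases and the 4 families of relatives. Values of genes below background on all (Ttk, Spdl1) or some (Plk4, Cit, Knl1, Cenpu, Rbl2, E2f4) miR-127-3p arrays are fitted and are not measures of size.

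Among 13 genes for transcription factors and cell cycle regulators that act on mitotic promoters, 7 fell and 2 rose (median -0.48). Of all features, 18.3% were called lower and 15.9% higher, so the count of rises is no result about the list. Mybl2 (-2.03, SE 0.09) and Foxm1 (-2.20, SE 0.13), the activators of late cell cycle genes, and the MuvB subunit Lin9 (-1.47, SE 0.11) fell. Cdkn1a, which encodes the Cdk inhibitor p21, rose (2.38, SE 0.17, limma adjusted p = 4.04e-05), and the MuvB subunit Lin37 rose as well (0.44, SE 0.11, adjusted p = 0.0158; lost in 5 settings, among them the removal of controls 3 and 6). The log2 fold changes of Trp53 (-0.21, adjusted p = 0.422) and of the pocket protein gene Rbl2 (0.34, adjusted p = 0.214) did not pass. Rbl2 passed without array miR-127-3p 7 (0.52, adjusted p = 0.0453).

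The features most like the kinases over all 8 arrays were found by the root mean square difference between their deviations from the control mean and the mean profile of the 9 genes, a measure that takes in the size of the fall. In order these were Fanca (0.07 on the log2 scale), 2700099C18Rik (0.08), Mki67 (0.08), Cenpe (0.08), Mns1 (0.09) and Kif22 (0.09). Their log2 fold changes lay between -2.06 (Kif22 and Mns1) and -2.01 (Fanca). The same measure for the kinases themselves, each of which is part of the mean, ran from 0.09 for Aurka to 0.22 for Cdk1 among the 8 above background on every array.

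Markers of another cell type moved in the opposite direction in the same comparison. Of 9 tested macrophage and leukocyte markers (of 10 listed), 8 rose and 0 fell, where 15.9% of all features were called higher, and Ptprc, which defines leukocytes, was not well above background on any array. The summed level of the 10 markers, in multiples of the 75th percentile of the array, ran between 63.9 and 74.9 on miR-127-3p arrays, against 36.1 and 45.4 on control arrays. For the 9 fibroblast markers it ran between 1397 and 1493 on miR-127-3p arrays, against 1265 and 1478 on control arrays, and 1 of them rose and 1 fell. The brightest probe weighs most in these sums, Itgam among the leukocyte markers and Col1a2 among the fibroblast markers. Itgam itself had a log2 fold change of 0.51 (SE 0.16), and its groups overlapped slightly. Of the tested keratinocyte markers 1 of 4 rose and of the melanocyte markers 1 of 4, counts too small to set against that share, while none of the 2 endothelial, 3 skeletal muscle, 3 adipocyte, 2 Schwann and 1 mast cell markers passed (limma). The part of other cells in the falls of the kinases was not tested.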

How the data were processed

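Per the file headers, the deposited scanner tables give 1-colour intensity per spot, made with Feature Extraction 11.5.1.1; nothing was normalized between arrays there. The deposited value table holds log2 values: they differ from log2 of the processed scanner signal by a fixed offset per array, so the scale is log2, centred on the 75th percentile of the array and not per gene. Column medians were -3.68, -3.69, -3.68 and -3.60 for miR-127-3p 2, 4, 5 and 7, and -3.78, -3.60, -3.62 and -3.67 for controls 1, 3, 6 and 8. The well-above-background, saturation and outlier flags are the scanner software's own, per the file headers (other values, 0 or 1).

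Control spots (3671 of 62976) and outlier spots were left out, spots of a probe were averaged as log2 intensity (55681 probes), and each array's 75th percentile was subtracted. Accessions were matched without versions to RefSeq gene symbols (GRCm38.p6, names only; 28331 probes). Probes well above background on at least 4 of 8 arrays were kept, 1 per gene by highest mean signal (17093 features). The test was limma 3.58.1 under R 4.3.3 (two-sided, Benjamini-Hochberg over all features, threshold 0.05), after a check on simulated data. The number of arrays limits the precision. No probe of the 10 genes was saturated.

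The members and lists were chosen with earlier results of these data known. By rule, named genes are all members, up to 4 genes with the smallest p of each list (all in lists of at most 5), genes that passed against a list's majority, and the 6 features nearest the mean profile; Knl1, Gtse1, Cit, Cenpu, E2f4, Nek6, Nek9, Bub3, Spdl1, Mad2l1bp, Zw10, Cdk4, Trp53 and Rbl2 were named after their values were seen. Alternatives were normexp (offset 50) on median signals (planned on mean signals, for which there was no column), quantile and median scaling, other filters, slide row and column as blocks, each row alone, each array left out, the deposited table, eBayes with trend and robust, and probe means; removing controls 3 and 6 was added after the data were seen.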

Additional observations from a re-analysis of the deposited data

Results flagged for a closer look

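A sample that lay far from the other 3 of its group was looked for in 146 groups of 4 arrays, of which 2 were flagged. The groups were the tested kinases and most other genes named above, without the cell type markers, each with the mimic and in controls. Chance alone flags about 1 in 20 such groups. Melk on array miR-127-3p 2 had a level of 0.23, with the nearest miR-127-3p array at -0.23. Bub3 on array miR-127-3p 4 had a level of 4.50, with the nearest miR-127-3p array at 4.39.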

How the results depend on the processing

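All 9 tested mitotic kinases kept their direction in every setting run. Their calls were kept too, except that Ttk lost its call within slide row 1 (-1.60, adjusted p = 0.0544) and was not tested where probes had to be above background on all 8 arrays, and no single array decided a call. The number of features called was 5851, 3657 with no filter on dim probes, and 1759 and 1611 within slide rows 1 and 2, which have fewer samples; it was 4320 to 5789 with an array left out. Over the 11 lists around the kinases, 52 genes fell and 8 rose, where 18.3% of all features were called lower and 15.9% higher. The numbers tested stand with each list above. Within row 1 these counts were 33 and 1, where 5.8% of all features were called lower. Within row 2, 3 rose, and with an array left out 50 to 53 fell and 8 to 10 rose. For differences in size between members, normexp gave Aurka -0.21 and Melk 0.042 and quantile scaling gave Pbk 0.017, each with the opposite sign, and Pbk ran from -0.095 to 0.059 over all settings, above 0 also without control 3, control 8 or miR-127-3p 5; the cause was not tested. Nek4 and Gtse1, both near 0, changed sign: Nek4 (0.18 within row 1, and -0.13 to 0.075 with an array left out, above 0 without control 1, control 8 or miR-127-3p 7) and Gtse1 (0.046 within row 2). No paired analysis was possible because the groups share no replicate numbers; the slide column, which held 1 array of each group, served as a block and left 4008 features called. Dim signals limit the sizes for Ttk, Spdl1, Plk4 and Knl1, and leave Aurkb unmeasured.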
